A study of Homo sapiens with 2 samples.

Results

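RNA sequencing of U87 cells was examined for 39 genes of heat shock chaperones that work outside the endoplasmic reticulum (ER), out of 41578 genes with a value. The genes were chosen by function, with earlier results of these data known. They are the HSP90, HSP70 and HSP110, HSP40 and small HSP families, the mitochondrial chaperonin, BAG proteins, HSP90 co-chaperones and the heat shock factors. HSPA13 was kept as listed, although its product is known as a protein of microsomes, which derive from the ER. U87 is an established human glioblastoma cell line, labelled as wild type. For 72 h the cells received either DMSO, the solvent, or CCA-1.1, which is a synthetic analog of curcumin, to learn which genes are differentially expressed. The concentration of CCA-1.1 used for sequencing was not given in the sources used here. There was 1 library per condition, so differences could not be checked in replicates and were not tested.

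Heat shock chaperones hold unfolded proteins in solution and help them to fold or to be degraded. HSP70 proteins bind short exposed stretches of a client, HSP40 proteins deliver the client and speed up ATP hydrolysis, and nucleotide exchange factors such as HSP110 and BAG proteins release it. HSP90 then matures selected clients, among them many kinases and steroid receptors, with co-chaperones that set its ATP cycle. When misfolded proteins build up, HSF1 binds heat shock elements, which are inverted repeats of GAA, in the promoters of many of these genes and induces them. Many tumour cells, glioblastoma included, keep these chaperones at a high level without heat.

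Values are TPM, summed over the transcripts of a gene. TPM is the abundance of a transcript per length, scaled to the same total in each library, so levels can be compared between genes, but read depth does not follow from it. The depth is unknown, and no interval for counting error is given. Differences are log2((CCA-1.1 TPM + 1) / (DMSO TPM + 1)), which understates the change of genes at low TPM. Of the 39 genes, 36 had a mean of at least 1 TPM over both libraries and were counted. The remaining 3, HSPA1A, HSPB7 and DNAJA4, are described by their values only.

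The labelled cell type was set beside marker genes first. Of 8 glial markers, 5 had a mean of at least 1 TPM. VIM was at 3217 TPM with DMSO and 3106 TPM with CCA-1.1, and SLC1A3 was at 42.6 TPM and 28.6 TPM. S100B was listed at 0 in both libraries, AQP4 was at 0 and 0.02 TPM, and GFAP was at 0.41 TPM and 0.57 TPM. S100B, AQP4 and GFAP were thus at or near 0, unlike the other 5 glial markers. NES was at 7.53 TPM with DMSO and 7.62 TPM with CCA-1.1. OLIG2 was at 5.64 TPM and 7.03 TPM, and SOX2 was at 1.87 TPM and 1.45 TPM. Of 3 leukocyte markers, AIF1 was at 0 in both libraries, PTPRC was at 0.09 TPM and 0.07 TPM, and CD68 was at 494 TPM and 397 TPM. Of 4 neuron markers, 3 had a mean of at least 1 TPM. SYP was at 47.4 TPM with DMSO and 43.2 TPM with CCA-1.1, and SNAP25 was at 22.0 TPM and 16.8 TPM. RBFOX3 was at 1.83 TPM and 2.45 TPM, and STMN2 was at 0 in both. The sum of the 4 was 71.3 TPM with DMSO and 62.5 TPM with CCA-1.1. The sums of the oligodendrocyte and endothelial markers stayed between 1.3 TPM and 3.93 TPM in both libraries. In bulk RNA, fewer cells of a type and less RNA per cell cannot be told apart.

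Promoter sequences from RefSeq (GRCh38.p14) are shown for 6 genes, because 4 of them hold a heat shock element of 3 units and the other two compare the HSPA1A and HSPA1B copies. Each window runs 5′ to 3′ from 250 bases before an annotated start of the gene to 50 bases after it. For HSP90AA1, HSP90AB1 and HSPD1, which have more than 1 window, the window with an element is shown. The windows at their other annotated starts hold no such element. In the first 4, capitals mark heat shock elements of 3 units, spelled GAANNTTCNNGAA or, on the other strand, TTCNNGAANNTTC. In HSPA1A and HSPA1B, capitals mark a pair of units, spelled GAANNTTC or TTCNNGAA, each of which reads the same on both strands. Every element of 3 units also contains such a pair.
HSP90AA1, chr14:102086995-102087294, minus strand: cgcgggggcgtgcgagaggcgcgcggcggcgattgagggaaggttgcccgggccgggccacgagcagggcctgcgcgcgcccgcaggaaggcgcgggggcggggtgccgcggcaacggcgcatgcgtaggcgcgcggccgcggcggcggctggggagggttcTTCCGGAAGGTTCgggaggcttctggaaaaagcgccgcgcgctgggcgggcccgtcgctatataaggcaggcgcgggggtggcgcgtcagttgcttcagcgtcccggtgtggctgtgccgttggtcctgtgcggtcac
HSP90AB1, chr6:44247693-44247992, plus strand: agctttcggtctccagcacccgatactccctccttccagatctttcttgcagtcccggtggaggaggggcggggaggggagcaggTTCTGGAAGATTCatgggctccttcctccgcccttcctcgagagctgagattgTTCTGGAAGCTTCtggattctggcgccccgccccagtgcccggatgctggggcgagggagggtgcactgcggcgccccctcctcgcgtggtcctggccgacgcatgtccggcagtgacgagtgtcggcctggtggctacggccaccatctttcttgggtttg
HSPA8, chr11:123062087-123062386, minus strand: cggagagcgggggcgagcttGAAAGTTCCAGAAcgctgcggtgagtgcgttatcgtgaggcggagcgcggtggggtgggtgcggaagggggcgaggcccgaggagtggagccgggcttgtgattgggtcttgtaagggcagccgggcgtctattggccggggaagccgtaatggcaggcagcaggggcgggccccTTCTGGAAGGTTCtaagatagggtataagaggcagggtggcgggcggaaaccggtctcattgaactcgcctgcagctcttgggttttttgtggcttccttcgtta
HSPD1, chr2:197499791-197500090, minus strand: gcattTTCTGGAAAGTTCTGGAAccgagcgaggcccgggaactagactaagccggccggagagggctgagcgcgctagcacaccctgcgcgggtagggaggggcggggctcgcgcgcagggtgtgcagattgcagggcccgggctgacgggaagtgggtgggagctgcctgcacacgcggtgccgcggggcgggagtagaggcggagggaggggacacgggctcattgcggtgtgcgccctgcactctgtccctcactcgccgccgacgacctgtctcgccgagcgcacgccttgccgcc
HSPA1A, chr6:31815293-31815592, plus strand: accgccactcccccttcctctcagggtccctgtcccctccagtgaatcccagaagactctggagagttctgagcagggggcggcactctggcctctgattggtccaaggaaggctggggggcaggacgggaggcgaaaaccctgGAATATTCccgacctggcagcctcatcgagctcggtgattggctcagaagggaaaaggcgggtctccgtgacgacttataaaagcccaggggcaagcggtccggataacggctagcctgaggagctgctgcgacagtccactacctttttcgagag
HSPA1B, chr6:31827488-31827787, plus strand: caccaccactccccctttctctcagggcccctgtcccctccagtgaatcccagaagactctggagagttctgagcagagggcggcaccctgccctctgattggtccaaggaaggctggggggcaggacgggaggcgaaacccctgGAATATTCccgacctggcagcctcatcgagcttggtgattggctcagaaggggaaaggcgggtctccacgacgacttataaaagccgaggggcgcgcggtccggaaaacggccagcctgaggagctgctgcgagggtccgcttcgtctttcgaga

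Of the 39 genes, 35 matched at least 1 of the 35116 promoter windows, with 50 windows in all. An element of 3 units was found in a window of 6 of these 35 genes, HSP90AA1, HSP90AB1, HSPA8, HSPD1, DNAJA1 and DNAJB6, which is 17.1%. Over all 27305 genes with a window the share was 0.608%, and over all windows it was 0.49%. A pair of units was found in 18 of the 35 genes (51.4%), against 16.2% of all genes. In HSPA8, 2 elements were found, the nearer of which begins at position -55 from the start, and in HSP90AA1 the element begins at position -88. In HSP90AB1, 2 elements begin at positions -165 and -112, counted from the annotated start whose window is shown. In HSPD1, 2 elements begin at positions -245 and -240 and overlap, so its capitals form 1 longer run. Only these exact spellings were searched, so an element with a changed letter in a unit was not counted. A gene without a match may thus still hold such an element. A match describes letters in the window and is not a measured binding site.

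Together the chaperone genes held 1.30% of all TPM in the DMSO library (12970 TPM) and 1.25% in the CCA-1.1 library (12543 TPM), a log2 ratio of the sums of -0.05. None of the 36 counted genes differed by 2-fold, against 3.56% of the 15482 genes in the table that reached a mean of 1 TPM. Most of the genes past 2-fold had a mean under 50 TPM. At a mean of 500 TPM or more, where 7 of the members lie, 2 of 255 genes passed it, both lower. At 50 to 500 TPM, where 17 of the members lie, 6 of 2870 genes were higher and 11 lower by 2-fold. The absence of a 2-fold difference therefore does not set the members apart. By more than 1.2-fold on the same scale, 2 genes were higher in CCA-1.1 (5.56%), BAG2 and HSF2, against 15.5% of all genes. HSPB8 was the 1 gene lower by more than 1.2-fold (2.78%), against 9.3% of all genes. Most chaperone genes lie above 10 TPM, where the shares of all genes were 9.46% higher and 7.01% lower. In either direction, 17 genes were higher in CCA-1.1, 18 were lower and FKBP5 was level, while 56.1% of all genes were higher. The median difference was -0.0011, against 0.03 for all genes, and the extremes were -0.30 and 0.31. All 36 differences thus lie inside the 5th and 95th percentiles of all genes, -0.40 and 0.53. Of the 15482 genes behind these percentiles, 12357 have a mean of 1 to 50 TPM, unlike most members. At 50 to 500 TPM, the level of HSPB8, 7.07% of all genes were lower by more than 1.2-fold.

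**Figure D1:**
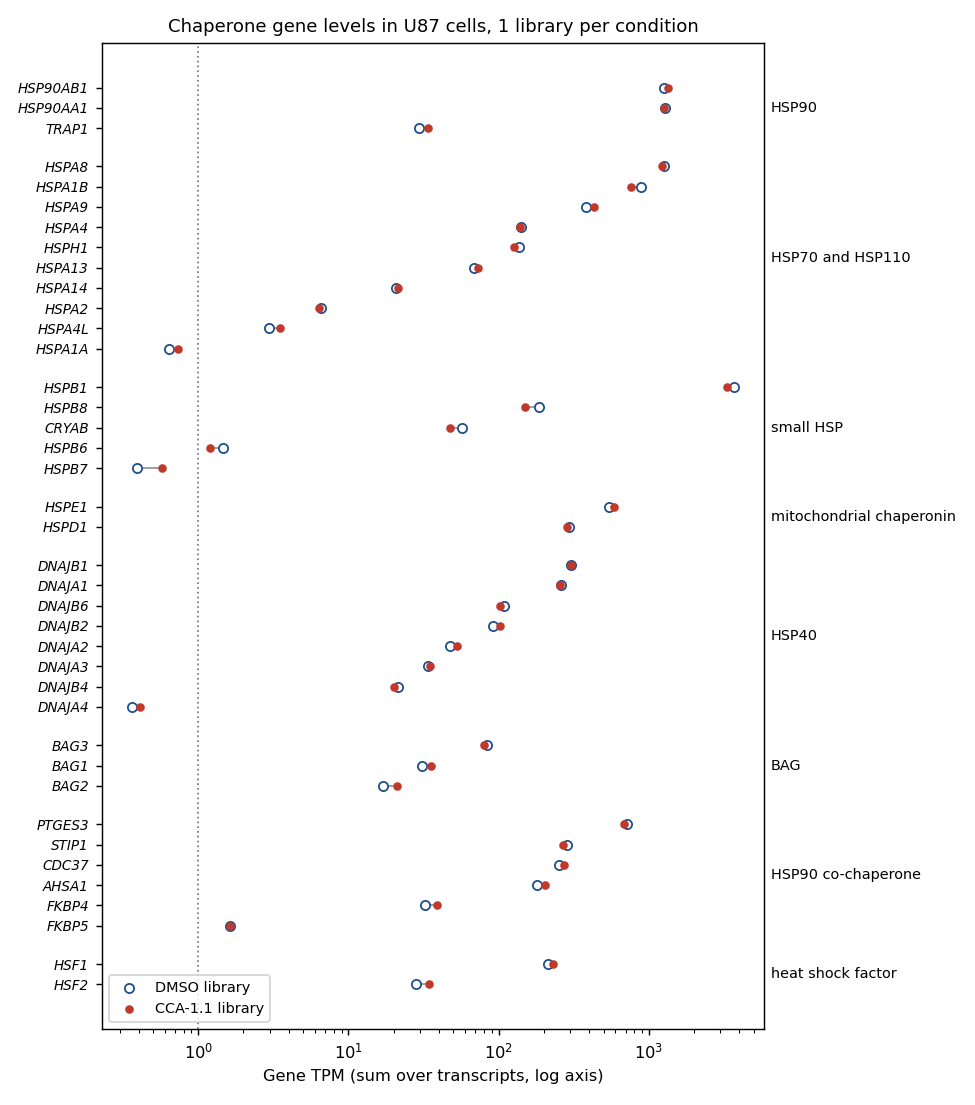
Gene TPM of the 39 chaperone genes on a log axis, with open circles for the DMSO library and filled circles for the CCA-1.1 library, grouped by family. The circles of most genes overlap, HSPB1 has the highest level in both libraries, and HSPA1A, HSPB7 and DNAJA4 lie left of the dotted line at 1 TPM.

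HSPB1 had the highest level of the module. This gene, which encodes the small heat shock protein HSP27, was at 3715 TPM with DMSO and 3318 TPM with CCA-1.1, rank 18 and rank 21 of all genes. Next came HSP90AA1, HSPA8 and HSP90AB1, between 1258 TPM and 1283 TPM with DMSO and between 1218 TPM and 1334 TPM with CCA-1.1. HSP90AA1 had the highest level of these 3 genes with DMSO and HSP90AB1 in CCA-1.1, an exchange that cannot be separated from library spread with 1 library per condition. HSPA1B, PTGES3 and HSPE1 followed, each above 500 TPM in both libraries. At the other end, HSPA2, HSPA4L, FKBP5 and HSPB6 lay between 1.19 TPM and 6.53 TPM. Of the 7 genes averaging 500 TPM or more, 2 were higher in CCA-1.1, and of the 12 between 1 and 50 TPM, 8 were higher, level cuts that were set after the values were seen. Over all genes the shares higher in CCA-1.1 were 49.8% in the first of these ranges and 59.0% in the second.

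HSP90 is the ATP-driven dimer that matures client kinases and receptors. Its stress-inducible cytosolic form HSP90AA1 was at 1283 TPM with DMSO and 1261 TPM with CCA-1.1, a difference of -0.03. The constitutive form HSP90AB1 was at 1258 TPM and 1334 TPM, a difference of 0.08. Their ratio was 1.02 with DMSO and 0.945 with CCA-1.1, and their sum was 2541 TPM and 2594 TPM. TRAP1, the mitochondrial HSP90, was far lower, at 29.6 TPM and 34.1 TPM, a difference of 0.20. The difference of TRAP1 was 0.13 with curated transcripts only. Of the 31-base words in TRAP1 transcripts, 23.6% also occur in DNASE1, a gene at 2.96 TPM and 3.62 TPM. Words were matched on either strand, so shared words can lie on the same or on opposite strands of these genes. Reads from words on the same strand cannot be placed by their sequence alone. For opposite strands this holds if the library does not keep the strand, which is not stated in the sources used here.

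HSP70 genes were led by the constitutive HSPA8 and the inducible HSPA1B. HSPA8, also called HSC70, was at 1259 TPM with DMSO and 1218 TPM with CCA-1.1, a difference of -0.05. HSPA1B, a stress-inducible HSP70, was at 884 TPM and 761 TPM, a difference of -0.22. This is the lowest difference of the HSP70 and HSP110 group, and 32.2% of all genes had a difference of larger size. HSPA1A, which encodes the same inducible HSP70, was at 0.64 TPM and 0.73 TPM. The table thus sets HSPA1B far above its copy, with ratios of 1381 with DMSO and 1042 with CCA-1.1. The copies start 12195 bases apart on chromosome 6, and their promoter windows differ by 24 edits over 300 bases. Of the 31-base words in HSPA1A transcripts, 76.0% also occur in HSPA1B, so the division between the copies is uncertain. Summed as 1 gene they were at 885 TPM and 761 TPM, with the difference unchanged at -0.22.

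The other HSP70 genes were within 1.2-fold as well. HSPA9, the mitochondrial HSP70 that pulls precursors through the inner membrane, was at 380.4 TPM with DMSO and 434 TPM with CCA-1.1, a difference of 0.19. HSPA13 was at 68.2 TPM and 72.6 TPM, and HSPA14, which works with the ribosome, was at 20.6 TPM and 21.2 TPM. HSPA2, best known from the testis, was at 6.53 TPM and 6.32 TPM. Across this wide range of levels no difference went beyond 0.19. The HSP110 genes encode the nucleotide exchange factors of HSP70. HSPA4 was at 140.25 TPM and 139 TPM, and HSPH1, which heat induces, was at 136 TPM and 127 TPM, a difference of -0.10. HSPA4L was at 2.98 TPM and 3.48 TPM.

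HSP40 genes supply the J-domain that starts the HSP70 cycle. DNAJB1, the main heat-inducible HSP40 of the cytosol, was at 303.9 TPM with DMSO and 303 TPM with CCA-1.1, a difference of -0.0022. Of all genes, 99.2% had a difference of larger size. DNAJA1 was at 260.1 TPM and 255 TPM. Neither of these abundant HSP40 genes was higher in CCA-1.1 with all transcripts summed. With curated transcripts only, the difference of DNAJB1 was 0.013. Its main transcript was at 285.8 TPM with DMSO and 291.3 TPM with CCA-1.1. DNAJB6 and DNAJB2, which hold back aggregation of polyglutamine proteins, differed in sign. DNAJB6 was at 108 TPM and 102 TPM, and DNAJB2 was at 91.5 TPM and 103 TPM, a difference of 0.17. DNAJA2 was at 47.7 TPM and 53.1 TPM, DNAJB4 was at 21.5 TPM and 20.2 TPM, and DNAJA4 was at 0.36 TPM and 0.41 TPM. The mitochondrial DNAJA3 was at 33.9 TPM and 34.9 TPM.

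All 4 counted small HSP genes were lower in the CCA-1.1 library, as were 6776 of all 15482 genes counted. Small HSPs bind unfolding proteins without ATP and keep them ready for HSP70. HSPB8, which works with BAG3 to send misfolded proteins to autophagy, was at 185 TPM with DMSO and 150.4 TPM with CCA-1.1, a difference of -0.30. CRYAB, the alpha-B crystallin chain, was at 57.0 TPM and 47.7 TPM, a difference of -0.25. The difference of HSPB1 was -0.16, and its change of -396 TPM was the largest of the module in absolute terms. HSPB6 was at 1.47 TPM and 1.19 TPM. HSPB7, a small HSP of heart muscle, was at 0.39 TPM and 0.57 TPM and was not counted. The median of the 4 genes was -0.21, and their summed TPM was 3959 with DMSO and 3518 with CCA-1.1. At 50 to 500 TPM, the level of HSPB8 and CRYAB, 1607 of 2870 genes were lower. At 500 TPM or more, the level of HSPB1, 128 of 255 genes were lower. HSPB6 lies near the minimum of 1 TPM. The shared sign of these 4 genes was not tested, for want of replicates.

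The mitochondrial members were mostly higher in CCA-1.1, with DNAJA3 changing sign in 1 of 5 alternatives run. HSPD1 and HSPE1, the HSP60 and HSP10 of the chamber that folds proteins in the matrix, start 105 and 539 bases apart on opposite strands, counted from the 2 annotated HSPD1 starts. HSPD1 was at 293 TPM with DMSO and 285 TPM with CCA-1.1, a difference of -0.04, and HSPE1 was at 543 TPM and 590.5 TPM, a difference of 0.12. The HSPE1 to HSPD1 ratio was therefore 1.85 with DMSO and 2.07 with CCA-1.1. In HSPE1, 15.0% of the 31-base words are shared with other genes, on either strand. With TRAP1, HSPA9 and DNAJA3, 4 of 5 mitochondrial members were higher, with a median of 0.12, against -0.01 for the 31 counted members outside mitochondria. Among all genes, 56.1% were higher and the median was 0.03. At 50 to 500 TPM, the level of HSPA9 and HSPD1, 1263 of 2870 genes were higher. At 500 TPM or more, the level of HSPE1, 127 of 255 genes were higher. At 1 to 50 TPM, the level of TRAP1 and DNAJA3, 59.0% of genes were higher. This grouping of members was made after the values were seen.

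**Figure D2:**
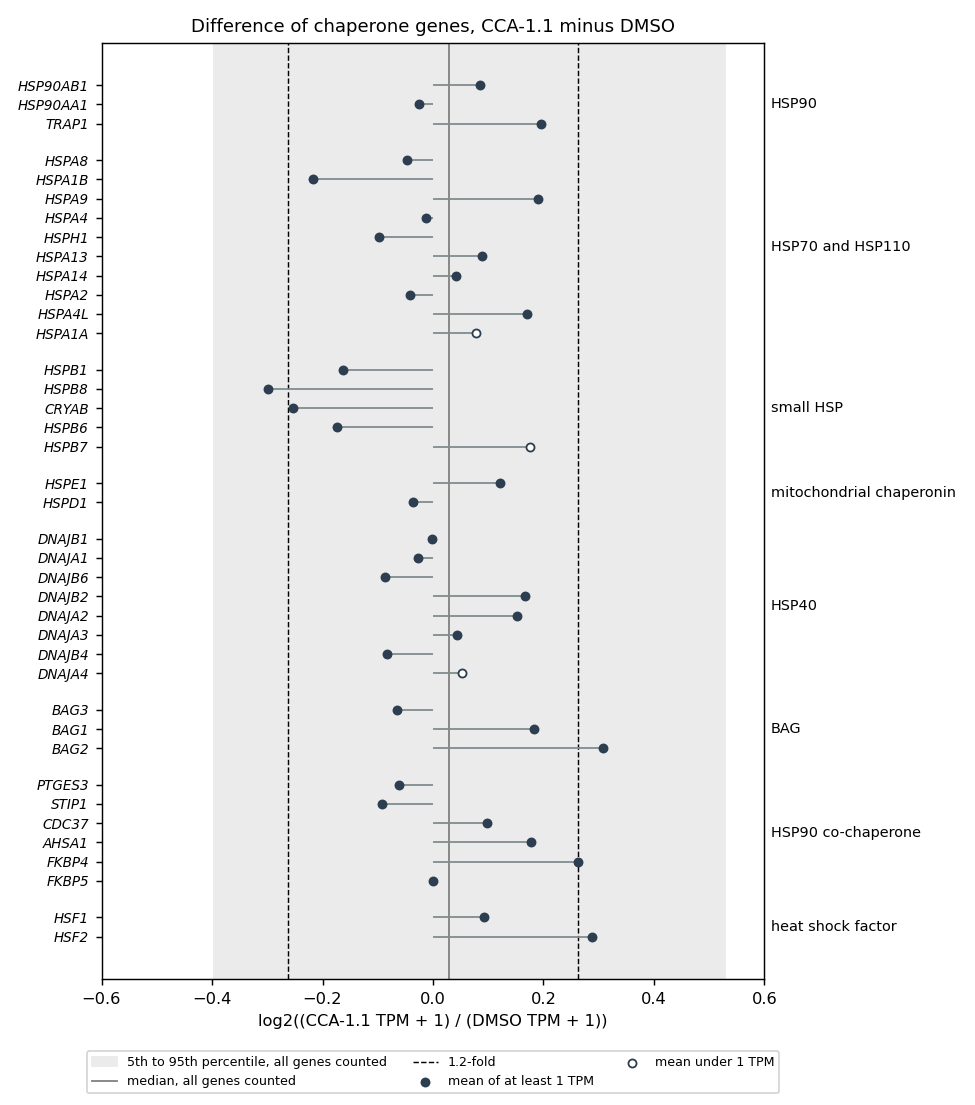
Difference of each chaperone gene, CCA-1.1 minus DMSO, on the log2(TPM + 1) scale, with open circles for genes with a mean under 1 TPM. BAG2 and HSF2 lie right of the dashed line for 1.2-fold and HSPB8 lies left of the other. All members are inside the grey band of the 5th to 95th percentile of all genes. The band covers genes of all levels, most with a mean under 50 TPM.

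BAG proteins release clients from HSP70 and steer them to the proteasome or to autophagy. BAG2, which inhibits the ubiquitin ligase CHIP, was at 16.9 TPM with DMSO and 21.1 TPM with CCA-1.1, a difference of 0.31 and the highest of the module. Of the 31-base words in BAG2 transcripts, 42.5% also occur, on either strand, in RAB23, which was at 25.1 TPM and 29.8 TPM. The part of these words in the BAG2 difference was not tested. BAG1 was at 31 TPM and 35.3 TPM, a difference of 0.18. Its 4 transcripts had identical values, 7.75 TPM each with DMSO and 8.83 TPM each in CCA-1.1, so the table does not separate them. The stress-inducible BAG3 was at 83.7 TPM and 79.9 TPM, a difference of -0.07.

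HSP90 co-chaperones had a summed level of 1466 TPM with DMSO and 1467 TPM with CCA-1.1. PTGES3, the p23 that stabilises the closed form of HSP90, was at 714 TPM and 684 TPM. STIP1, the adaptor between HSP70 and HSP90, was at 286 TPM and 268 TPM, a difference of -0.09. These were the 2 lower co-chaperones. CDC37, which brings kinases to HSP90, was at 253 TPM and 271 TPM, and AHSA1, which stimulates its ATPase, was at 180 TPM and 204 TPM, a difference of 0.18. FKBP4, an immunophilin of steroid receptor complexes, was at 32.2 TPM and 38.8 TPM. Its difference of 0.2627 lies just under the 1.2-fold limit of 0.2630, which it passed in 3 of 5 alternatives run. FKBP5, a classical glucocorticoid target, was at 1.62 TPM in both libraries.

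The heat shock factors were both higher in CCA-1.1 with all transcripts summed, HSF1 not with curated transcripts only. HSF1, the main activator of the heat shock response, was at 215 TPM with DMSO and 229 TPM with CCA-1.1, a difference of 0.09. With curated transcripts only, the difference of HSF1 was -0.02. HSF2, which forms trimers with HSF1, was at 28.1 TPM and 34.6 TPM, a difference of 0.29. The 6 genes with an exactly spelled heat shock element of 3 units had differences from -0.09 (DNAJB6) to 0.08 (HSP90AB1). Of these, 1 was higher and 5 lower, all within 1.2-fold. Each of the 6 has a mean over 50 TPM. Among all genes, 1263 of 2870 were higher at 50 to 500 TPM, and 127 of 255 at 500 TPM or more. Whether genes with the element differ from other genes was not tested. Activity of HSF1 is set mainly at the protein level, so these RNA levels do not measure it.

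The table lists 157 transcripts of the 39 genes, of which 39 were at 0 in both libraries, and 12 genes have a single transcript. In all 36 counted genes the transcript with the highest value was the same in both libraries, counting the equal BAG1 transcripts as such. In 22 of them it held over 90% of the gene in each library. Of the 118 transcripts above 0 in either library, 4 were higher by more than 2-fold, against 2.12% of all such transcripts, and 5 were lower, against 1.93%. Of the 85 transcripts with a mean of 1 TPM or more, 6 passed 2-fold in either direction (7.06%), against 7.04% of all such transcripts. None of the 9 was the main transcript of its gene. Kallisto divides reads that match several transcripts by estimation, so these values depend on each other.

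The 9 transcripts belong to CRYAB, HSF1, DNAJA3, DNAJB1, STIP1 and TRAP1, and most were named because their values passed 2-fold. CRYAB had 4 of them. Its main transcript NM_001289808.2 was at 47.0 TPM with DMSO and 43.2 TPM with CCA-1.1, a difference of -0.12. NM_001289807.1 was at 6.43 TPM and 1.48 TPM, NM_001368245.1 was at 2.19 TPM and listed at 0, and NM_001330379.1 was at 1.33 TPM and listed at 0. In the opposite direction, NM_001885.3 had no TPM with DMSO (listed at 0) and 2.96 TPM with CCA-1.1. The share of the main transcript in CRYAB was 82.5% with DMSO and 90.7% with CCA-1.1. In HSF1, the main transcript NM_005526.4 was at 155 TPM and 153 TPM and held 72.4% and 66.7% of the gene. The predicted transcript XM_011517006.3 of HSF1 was at 3.46 TPM and 8.39 TPM, a difference of 1.07. It was the 1 transcript past 2-fold with a mean of at least 5 TPM.

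**Figure D3:**
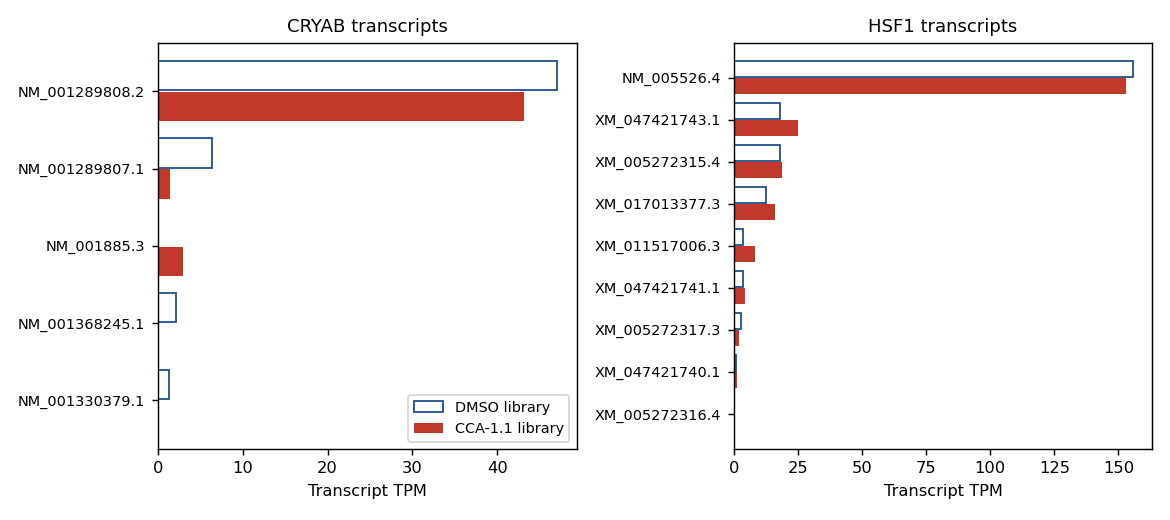
TPM of each CRYAB and HSF1 transcript above 0, with open bars for the DMSO library and filled bars for the CCA-1.1 library. The main transcript of each gene, 47.0 and 43.2 TPM for CRYAB and 155 and 153 TPM for HSF1, exceeds all others in both libraries.

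Other chaperones were placed beside the module by their counts. Among all genes, 56.1% were higher in CCA-1.1, and 15.5% were higher by more than 1.2-fold. Of the 14 genes of the cytosolic chaperonin, which folds actin and tubulin, and of prefoldin, 10 were higher in CCA-1.1, with a median of 0.06. CCT4, a chaperonin subunit, was at 147 TPM with DMSO and 193 TPM with CCA-1.1, a difference of 0.39 and the 1 gene of that list past 1.2-fold. Of 17 ER chaperones, which fold secreted proteins, 13 were lower and 4 higher, with a median of -0.12. The ER genes past 1.2-fold were SIL1 at 53.5 TPM and 43.3 TPM, DNAJC3 at 54.6 TPM and 44.7 TPM, and P4HB at 1054 TPM and 874 TPM, all lower. Lower by more than 1.2-fold were 17.6% of the ER list, against 9.3% of all genes and 7.01% of those at 10 TPM or more. The difference between these lists and the module was not tested.

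A further list of 39 chaperones and co-chaperones outside the ER had 36 genes in the table and 34 counted. Of these, 13 were higher (38.2%, against 56.1% of all genes) and 21 lower, with a median of -0.05. By more than 1.2-fold, 2.94% were higher and 11.8% lower, against 15.5% and 9.3% of all genes. HSPA6, an HSP70 that is nearly silent without stress, was at 9.64 TPM with DMSO and 13.2 TPM with CCA-1.1, a difference of 0.42. Its sign was opposite to that of HSPA1B and the same as that of HSPA1A, which lay under 1 TPM in both libraries. HSPB3, a small HSP of muscle, was at 28.5 TPM and 15.8 TPM, a difference of -0.81, the lowest of all chaperones examined. BAG4 was at 26.2 TPM and 20.6 TPM, and DNAJC9, a histone chaperone, was at 23.0 TPM and 19.0 TPM. None of these passed 2-fold.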

How the data were processed

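RNA of U87 cells was sequenced from 1 DMSO library and 1 CCA-1.1 library. The authors enriched mRNA and inspected the reads (FastQC 0.11.9, MultiQC 1.1). Kallisto then estimated transcript abundance on GRCh38.p14, and the deposited values are TPM to 2 decimals for 177816 transcripts. Kallisto's options, among them the word length, are not given in the sources used here. TPM keeps no read depth, so no count test was run. Transcripts were matched to symbols through the RefSeq gene table of GRCh38.p14 (169960 matched, 169405 by version), and TPM was summed per gene. Differences used a pseudocount of 1 TPM and a minimum mean of 1 TPM. Past 2-fold followed the study's fold criterion, and 1.2-fold was added. Genes were named as all 39 members, with other chaperones named past 1.2-fold at a mean of at least 10 TPM. The members and lists were chosen with earlier results of these data known. Words of 31 bases shared between genes were counted on GENCODE transcripts matched by symbol, not on the RefSeq transcripts that have values. A match on either strand counted. Promoter windows came from RefSeq. The calculation was tested on simulated data. Alternatives were other pseudocounts, minimum levels, transcript sets and scaling. Calculations used Python 3.11.15, numpy 2.4.6, pandas 2.3.3 and matplotlib 3.10.9.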

Additional observations from a re-analysis of the deposited data

How the results depend on the processing

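With a single library in each condition there were no pairs to analyse, and no library could be left out. No chaperone gene passed 2-fold under any of the 8 alternatives run. The count of genes lower by more than 1.2-fold was 2 in place of 1 with a pseudocount of 0.1 or 0.01 TPM, with HSPB6 added. The count of genes higher by more than 1.2-fold was 3 in place of 2 with both pseudocounts and with curated transcripts only, with FKBP4 added. Transcripts past 2-fold numbered 8 higher and 10 lower with a pseudocount of 0.1 TPM, 10 higher and 12 lower with 0.01 TPM, 1 higher with curated transcripts only, 3 lower with a minimum mean of 1 TPM, and 0 in each direction with a minimum mean of 10 TPM. Those counts move because a smaller pseudocount lets low transcripts pass, and a minimum or a restriction to curated transcripts leaves fewer to count. The remaining 60 of 70 recomputed summaries were within 1.5 times of the count, or within 0.1 on the log2 scale, a tolerance set by hand. Of 195 recomputed gene differences, 187 moved by less than 0.1. DNAJA3, DNAJB1 and HSF1 changed sign under at least 1 alternative, and all 3 lie within 1.2-fold throughout. Median-ratio scaling shifts all genes by 0.0080 (log2). The unknown depth limits every value near 0, among them HSPA1A, HSPB7 and DNAJA4.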
